A study of Mus musculus with 8 samples.

Results

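The receptors for serotonin, acetylcholine, dopamine, noradrenaline and the opioids were examined in 2 classes of cortical interneuron. The genes were taken by symbol (Htr1, Htr2 and Htr4 to Htr7, Chrm, Chrna, Chrnb, Drd, Adra and Adrb with a digit, and Oprd1, Oprk1, Oprl1 and Oprm1), and Htr3a was left out. This gave 48 genes of the 23335 gene names in the table: 12 serotonin, 5 muscarinic, 13 nicotinic, 5 dopamine, 9 adrenergic and 4 opioid receptor genes. The study asked which data features and analysis practices shape co-expression networks built from single cells, and it prepared its cells in known batches for that purpose.

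The transmitters bound by these receptors reach the cortex mainly from a few nuclei below it, in the case of acetylcholine and the monoamines, or are made locally, in the case of many opioid peptides. Most of the receptors act through G proteins: one class raises cyclic AMP, another lowers it and opens potassium channels, and others act through phospholipase C. The nicotinic receptors are the exception, since they are ion channels built of subunits. Inhibitory interneurons are known targets of all of these systems, and opioid receptors on cortical interneurons are known for reducing inhibition.

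The chandelier cells (ChC), which innervate the axon initial segment of pyramidal cells, came from Nkx2.1-CreER; Ai14 mice given 150 ul of 20 mg/ml tamoxifen at E17.5, so that cells active for the Nkx2.1 promoter at that time made a red fluorescent protein. The Pv cells, parvalbumin-positive basket cells, came from Pv-ires-Cre; Ai14 mice, in which any cell that has used the Pv promoter is marked. The 4 animals were females without other treatment: ChC animal 1 at postnatal day 31 (batches 1 and 2), ChC animal 2 at day 32 (batches 3 and 4), Pv animal 3 at day 29 (batches 5 and 6) and Pv animal 4 at day 35 (batches 7 and 8). Fluorescent neurons were picked by hand from dissociated frontal cortex and frozen in single tubes, and each batch held 16 cells. Each cell type was run on a flow cell of its own and each animal in a lane of its own, so that cell type, mouse line, animal and flow cell cannot be told apart in this design. Varietal tags, random sequences that mark each molecule and are called UMI here, were counted, so that a receptor is measured in molecules and no correction for transcript length was made.

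After removal of 2 cells without a count, 63 ChC and 63 Pv cells remained, with 370238 to 2898413 UMI per batch and 1053 to 606191 UMI per cell. Levels are given per batch as CPM, the UMI of a gene per 1000000 UMI of the batch, scaled by the trimmed mean of M values (TMM). Pvalb, which marks Pv cells, stood at 73.1 to 173 CPM in the ChC batches and at 483 to 1494 in the Pv batches. The other listed markers of Pv cells overlapped between the classes. Their mean levels in ChC and Pv were 851 and 576 for Kcnc1, 472 and 239 for Tac1, and 253 and 617 for Kcnc2. Sums of all 4 listed genes were 680 to 3028 CPM in ChC and 1521 to 3445 in Pv batches. Gad1, a GABA synthesis enzyme, had a UMI in 125 of 126 cells. Nkx2-1 was present in every batch of both classes (105 to 133 in ChC, 39 to 148 in Pv). Of the markers of other interneurons, 6 of 7 in the table had a UMI, with sums of 55.5 to 1054 CPM in ChC and 92.7 to 605 in Pv batches. Vip was at 0, and Sst, Htr3a and Calb2 had at most 3 UMI each, whereas Cck (1540 UMI in 104 cells), Npy (956 in 43) and Reln (734 in 86) made up most of these sums. Of the pyramidal cell markers, 4 of 8 were detected, with sums of 44.8 to 816 CPM in ChC and 149 to 1289 in Pv batches. Camk2a held most of these sums. Slc17a6, Neurod6, Tbr1 and Emx1 were at 0. Glial and vascular markers reached at most 241 CPM for 4 of 5 astrocyte genes (Gfap at 0), 196 for 3 of 5 oligodendrocyte genes (Mobp and Mag at 0), 90.4 for 5 of 6 microglial genes (C1qa at 0) and 110 for 4 of 6 vascular genes (Cldn5 and Vtn at 0). The part of these cells in the receptor values was not tested. Fewer cells that express a gene and less RNA per cell cannot be told apart in a batch sum.

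At least 1 UMI was found for 33 of the 48 receptor genes (68.75%, against 70.8% of all gene names). The 48 genes held 5074 UMI together, which was 0.0664% of all UMI, and 62.1% of these came from the 5 genes with the most. Of the 33 genes, 20 had 20 or more UMI and 13 had 1 to 19, and 23 were seen in both cell types, 6 in ChC only and 4 in Pv only. Of the genes seen in 1 cell type only, Chrna3, Chrna4 and Drd5 were nearly confined to 1 batch, and the other 7 had at most 10 UMI.

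**Figure D1:**
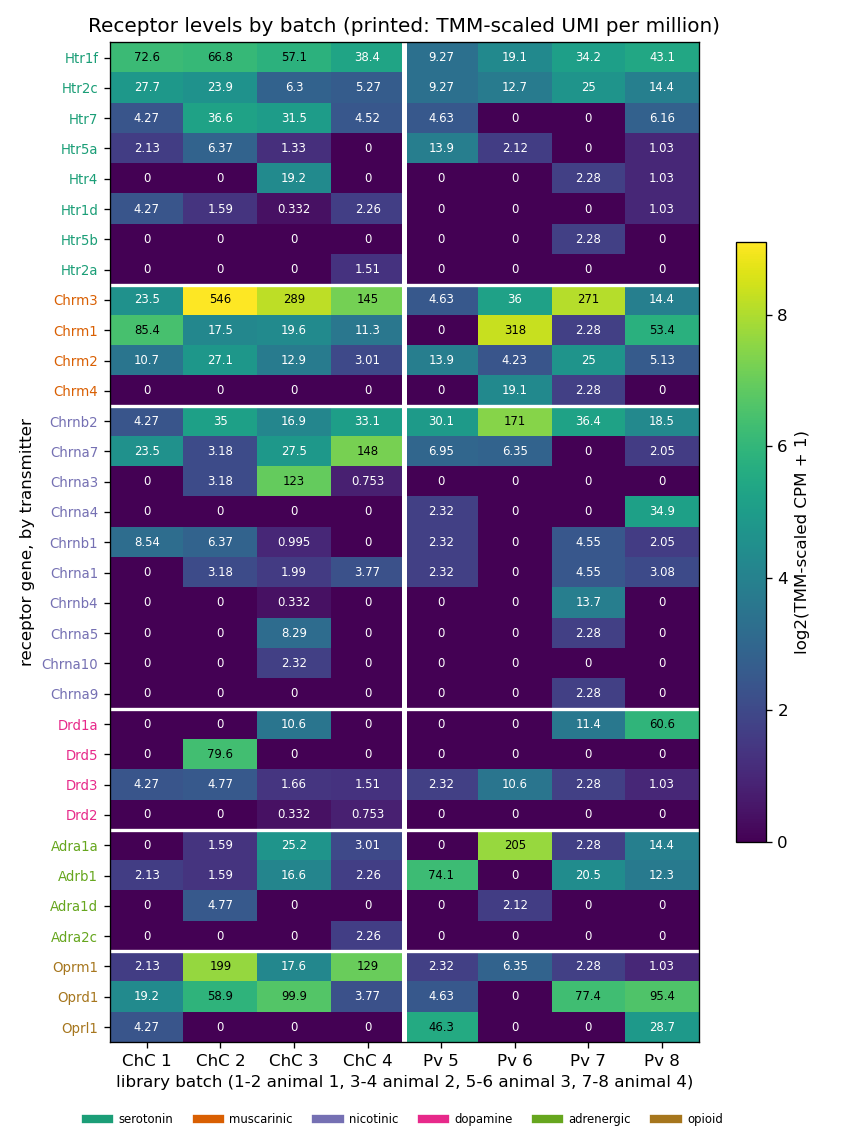
TMM-scaled CPM (printed in each field) of the 33 receptor genes with a UMI (rows, coloured by transmitter) in the 8 library batches (columns, ChC left and Pv right), with colour on a log2(value + 1) scale. Htr1f and Htr2c were present in all 8 batches, at 9.27 to 72.6 and 5.27 to 27.7 CPM, whereas most other rows have 1 or 2 bright fields, such as Drd5 in batch 2 and Chrna3 in batch 3.

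The serotonin receptors Htr1f and Htr2c had the most even levels over batches of the 20 receptors with 20 or more UMI. Htr1f, which lowers cyclic AMP through Gi proteins (chr16:64924555-65105610, minus strand, mm9), had 369 UMI in 85 of 126 cells and in every batch. Its level was 72.6, 66.8, 57.1 and 38.4 CPM in ChC batches 1 to 4, and 9.27, 19.1, 34.2 and 43.1 in Pv batches 5 to 8. The lowest ChC batch fell below the highest Pv batch, so the groups overlapped by this pair alone. Without batch 4 or without batch 8 the groups did not overlap, which comes more easily with fewer batches. The mean was 58.7 ± 15 in ChC and 26.4 ± 15.1 in Pv (SD, n = 4 batches), and over animals the difference was not resolved (log2 fold change 1.14, SE 1.22, adjusted p = 0.990, edgeR quasi-likelihood test).

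Htr2c, a Gq-coupled receptor (chrX:143397056-143631820, plus strand), was also found in all batches, with 89 UMI in 47 cells. It stood at 27.7, 23.9, 6.30 and 5.27 CPM in the ChC batches and at 9.27, 12.7, 25 and 14.4 in the Pv batches. The ChC range enclosed the Pv range, with ChC animal 1 above ChC animal 2. The log2 fold change was 0.09 with a 95% interval from -3.18 to 3.37. All 27 ChC cells with a Htr2c tag also had an Htr1f tag, as did 15 of the 20 Pv cells, in a comparison that shares the cells' depth.

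Htr7, which raises cyclic AMP through Gs, had 134 UMI and was found mainly in ChC batches 2 (36.6 CPM) and 3 (31.5), with 4.27 and 4.52 in batches 1 and 4. In Pv it ranged from 0 to 6.16 (log2 fold change 2.80, SE 1.45, adjusted p = 0.865, edgeR). Htr4, also Gs-coupled, had 58 of its 60 UMI in batch 3. The other serotonin receptors were at the edge of detection: Htr5a had 17 UMI over 6 batches, Htr1d 8 UMI with 7 of them in ChC, Htr2a 2 UMI in 1 ChC cell and Htr5b 1 UMI in a Pv cell. Htr1a, Htr1b, Htr2b and Htr6 had none.

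Muscarinic receptors gave the highest counts of any group, and Chrm3 and Chrm1 were high in different batches. Chrm3, a Gq-coupled receptor that excites cells through phospholipase C (chr13:9875859-10360049, minus strand), had 1571 UMI in 89 cells, the most of any member. Its level was 23.5, 546, 289 and 145 CPM in ChC batches 1 to 4 and 4.63, 36, 271 and 14.4 in Pv batches 5 to 8. Batches 2, 3, 4 and 7 were high and the other four low, and the groups overlapped. After thinning each cell to 10000 UMI, 37 of 49 ChC cells (75.5%, exact 95% interval 61.1 to 86.7) and 22 of 59 Pv cells (37.3%, 25 to 50.9) had a tag. These intervals cover counting error only, and 15 of those 22 Pv cells were in batch 7, where all 15 thinned cells had one. Over animals, the log2 fold change of Chrm3 was 2.30 (SE 0.947, unadjusted p = 0.0407, adjusted p = 0.756, edgeR), which did not pass the threshold. It was 0.93 with thinned cells, 1.27 without batch 2, 1.00 without batch 8 and 3.99 without batch 7.

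Chrm1, also Gq-coupled (chr19:8738495-8758092, plus strand), had 328 UMI in 64 cells. It stood at 85.4, 17.505, 19.6 and 11.3 CPM in the ChC batches and at 0, 318, 2.28 and 53.4 in the Pv batches. The Pv range enclosed the ChC range. Batches 5 and 6, from the same Pv animal, held 0 and 150 UMI, the latter spread over 14 of 15 cells. A count of 0 in batch 5 allows up to 6.57 unscaled CPM, and batch 6 was at least 45.5-fold higher against this floor of 3 counts. The log2 fold change of -1.71 (SE 1.24, adjusted p = 0.938, edgeR) turned to 0.71 without batch 6.

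The pyramidal marker sum, given here beside Chrm1 and Chrm3, was 44.8, 469, 57.4 and 816 CPM in batches 1 to 4 and 491, 972, 1289 and 149 in batches 5 to 8. Batch 6, highest for Chrm1, and batch 7, highest of Pv for Chrm3, had the highest sums. Batch 1, the second highest for Chrm1, had the lowest sum, and batch 5, with a sum of 491, had no Chrm1. Chrm2, a Gi-coupled muscarinic receptor, was in all 8 batches at 3.01 to 27.1 in ChC and 4.23 to 25 in Pv (log2 fold change 0.55, SE 1.35). Chrm4, which also acts through Gi, had 9 of 10 UMI in Pv batch 6, and Chrm5 had none.

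Among nicotinic subunits, the beta subunit Chrnb2, part of the main heteromeric receptor of the brain, was the only one detected in all batches. Chrnb2 (chr3:89557370-89568554, minus strand, overlapped on the opposite strand by Adar, with the strand setting of the counting not given in the sources used here) had 247 UMI in 72 cells. Its level was 4.27, 35.0, 16.9 and 33.1 CPM in ChC and 30.1, 171, 36.4 and 18.5 in Pv batches. Batch 6 stood above all others, and the remaining Pv batches lay within or close to the ChC range. The log2 fold change was -1.55 (SE 1.30, adjusted p = 0.973, edgeR), and -0.35 without batch 6. Its usual partner, the alpha subunit Chrna4, had 34 of 35 UMI in Pv batch 8, in 13 of 16 cells. Of the 14 cells with Chrna4, all Pv, 8 also had Chrnb2, beside 39 of all 63 Pv cells, in a comparison that shares the cells' depth.

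Chrna7, which forms homomeric channels permeable to calcium (chr7:70243578-70357412, minus strand), had 293 of 301 UMI in ChC. It stood at 23.5, 3.18, 27.5 and 148 CPM in ChC and at 6.95, 6.35, 0 and 2.05 in Pv batches. ChC batch 2 lay within the Pv range, and the other ChC batches above it. The log2 fold change was 3.29, with a 95% interval from -0.58 to 7.16 (SE 1.68, adjusted p = 0.862, edgeR). Thinned to equal depth, 16 of 49 ChC cells and 2 of 59 Pv cells had a tag, 10 of the 16 in batch 4.

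The subunit gene Chrna3 and its neighbour Chrna5 were seen almost only in ChC batch 3, the deepest batch. Chrna3 (chr9:54859150-54874366, minus strand) had 371 of its 374 UMI there, in 15 of 16 cells, with 1 UMI in batch 4 of the same animal, 2 in batch 2 and none in the other five batches. Batch 3 was 167-fold above batch 4, with an exact counting interval from 29.9 to 6629. The adjoining Chrna5 (chr9:54828687-54855586, plus strand) had 25 of 26 UMI in batch 3, and all 10 ChC cells with Chrna5 also had Chrna3. The third gene of the cluster, Chrnb4 (chr9:54875963-54896351, minus strand), had 1 UMI in batch 3 and 6 in Pv batch 7. At 10000 UMI per cell Chrna3 was still found in 12 of 14 cells of batch 3 and in no other cell, whereas Chrna5 was not found in any cell. The muscle-type subunits Chrna1 and Chrnb1 had 19 and 16 UMI over 6 batches each, Chrna10 had 7 UMI in batch 3, Chrna9 had 1, and Chrna2, Chrna6 and Chrnb3 had none.

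The D1-class dopamine receptors, which raise cyclic AMP, were each limited to a few batches and never shared a cell. Drd1a (chr13:54146553-54151027, minus strand) had 96 UMI: 32 in ChC batch 3, 5 in Pv batch 7 and 59 in Pv batch 8, where all 16 cells had a tag. The other five batches were at 0. Drd5 (chr5:38710748-38713549, plus strand), a gene of a single exon, had 50 UMI, all in ChC batch 2 and in 12 of its 16 cells. Batch 1 of the same animal had none, so batch 2 was at least 13.4-fold higher against the floor of 3 counts. Of 27 cells with Drd1a and 12 cells with Drd5, 0 had both, and no batch held both genes. Neither gene passed the filter on low counts over the 4 animals.

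Of the D2-class receptors, which lower cyclic AMP, Drd3 had 20 UMI spread over all 8 batches, at 1.51 to 4.77 CPM in ChC and 1.03 to 10.6 in Pv. Drd2 had 2 UMI in ChC and Drd4 had none. Ppp1r1b, the phosphoprotein that carries much of the D1 signal in striatum, was at 0 in every cell.

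Adrenergic receptors were represented by Adra1a and Adrb1. Adra1a, a Gq-coupled receptor (chr14:67254095-67352166, plus strand), stood at 0, 1.59, 25.2 and 3.01 CPM in ChC and at 0, 205, 2.28 and 14.4 in Pv batches. Batch 6 held 97 of its 193 UMI, in 14 of 15 cells, and batch 5 of the same animal held 0, a difference of at least 29.4-fold. The log2 fold change of -2.53 (SE 1.77, adjusted p = 0.935, edgeR) turned to 0.78 without batch 6. In the GENCODE annotation of the same assembly, a longer transcript of Adra1a ends 37839 bases beyond the 3' end of the row in the table, and tags from its end would lie outside that row.

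Adrb1, which raises cyclic AMP through Gs (chr19:56796862-56799352, plus strand), was high in the other batch of Pv animal 3, with 32 UMI in batch 5 and 0 in batch 6. Its level was 2.13, 1.59, 16.6 and 2.26 CPM in ChC and 74.1, 0, 20.5 and 12.3 in Pv batches, and the ranges overlapped (log2 fold change -1.76, SE 1.53, adjusted p = 0.976, edgeR). Without batch 5 the log2 fold change was -0.11. Adra1d and Adra2c had 4 and 3 UMI. Adra1b, Adra2a, Adra2b and Adrb3 had none, so that every detected alpha2 tag came from the 3 of Adra2c in batch 4.

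The opioid receptors, all Gi-coupled, included the member with the lowest p between cell types. Oprm1, the mu receptor (chr10:3308332-3557940, minus strand, overlapped on the opposite strand by Ipcef1), had 350 of 356 UMI in ChC. It stood at 2.13, 199, 17.6 and 129 CPM in ChC and at 2.32, 6.35, 2.28 and 1.03 in Pv batches. ChC batches 2, 3 and 4 lay above every Pv batch, but batch 1, from the same animal as batch 2, had 1 UMI and lay within the Pv range. Batch 2 was 100-fold above batch 1, with an exact counting interval from 17.7 to 3991. At equal depth 22 of 49 ChC cells (44.9%, 30.7 to 59.8) and 1 of 59 Pv cells (1.69%, 0.0429 to 9.09) had a tag. These intervals treat cells as independent and cover counting error only: 20 of the 22 cells were in batches 2 and 4, and 0 of 11 cells of batch 1 had one. Over animals the log2 fold change was 4.83 (SE 1.5, 95% interval 1.39 to 8.26, unadjusted p = 0.0118, adjusted p = 0.636, edgeR). DESeq2 gave 4.83 with an adjusted p of 0.0336, and over 16 alternatives the adjusted p ranged from 0.0336 to 0.937. Without batch 2 the gene did not pass the filter on low counts.

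Oprd1, the delta receptor (chr4:131666641-131700401, minus strand), had 481 UMI, found in both classes. Its level was 19.2, 58.9, 99.9 and 3.77 CPM in ChC and 4.63, 0, 77.4 and 95.4 in Pv batches, so that each class had high and low batches (log2 fold change 0.31, SE 1.54, adjusted p = 0.999, edgeR). Of the 40 ChC cells with Oprm1, 22 also had Oprd1, against 2 of 6 in Pv. Among all cells, 31 of 63 ChC and 28 of 63 Pv cells had Oprd1, and the comparison shares the cells' depth. Oprl1, the nociceptin receptor, had 2 rows with the same count in every cell, so its 25 UMI were counted as 50 in the sum: 2 in ChC batch 1, 20 in Pv batch 5 and 28 in Pv batch 8 (log2 fold change -4.83, SE 2.01, unadjusted p = 0.0421, adjusted p = 0.759, edgeR). Pv batches 6 and 7 were at 0. Oprk1, the kappa receptor, had none.

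Between the cell types, 13 of the 48 genes passed the filter on low counts over animals, and 0 were called at an adjusted p under 0.05 by edgeR, as were 0 of 9829 genes tested (0%). At an unadjusted p under 0.05 there were 3 of the 13 (Oprm1, Chrm3 and Oprl1) beside 6.27% of all genes. This count was 0 of 11 without batch 2 (beside 476 of 9343 genes) and 0 of 5 over batches (443 of 6481). It was 1 of 12 without batch 5 (499 of 9640) and 5 of 12 without batch 3 (605 of 9562). Oprm1 did not pass the filter without batch 2 or over batches. Of the 13, 8 had a positive and 5 a negative log2 fold change, with a median of 0.31 against 0.04 for all genes tested. DESeq2 called 1 member, Oprm1, among 1.65% of genes, and edgeR over batches called 0 of 5 members tested, among 0.0771% of genes. In no gene that passed the filter over batches (0 of 5) did the ChC and Pv batches fail to overlap, beside 4.72% of 6481 genes. With standard errors of 0.947 to 2.01 on the log2 scale, the 95% intervals of 10 of the 13 included 0, as the plot of fold changes shows. The batches and animals of one type are separate samples in the labels. The p-values rest on 2 animals of each type, with the variance of each gene moderated by that of all genes tested.

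**Figure D2:**
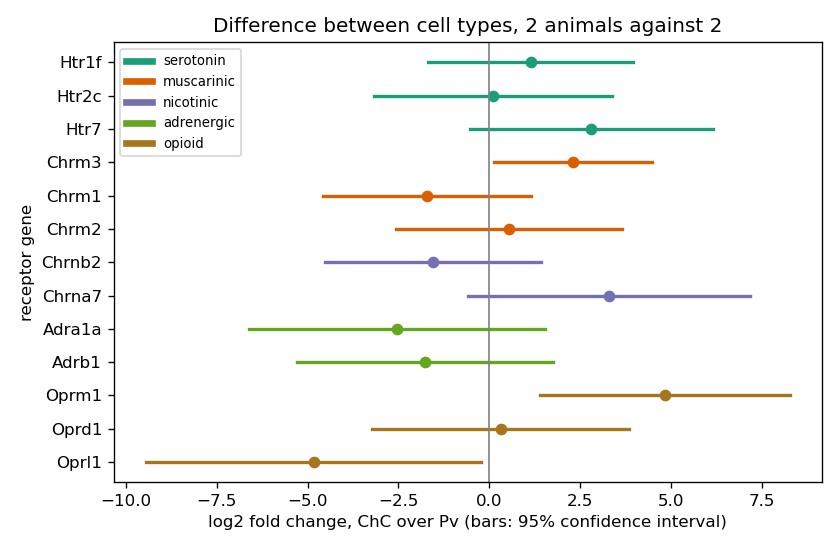
Log2 fold change of ChC over Pv (points) with its 95% confidence interval (bars) for the 13 receptor genes that passed the filter over animals, 2 animals against 2, edgeR. The intervals of Chrm3, Oprm1 and Oprl1 lie to one side of 0 before adjustment, and the lowest adjusted p was 0.636.

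Most of these receptors differed widely between the 2 batches of one animal. In 12 of the 20 receptor genes with 20 or more UMI (60%), over 50% of the summed CPM came from 1 of the 8 batches, and the median share of the top batch was 55%. Over the 11663 genes in the same range of UMI, 31.9% had such a batch and the median was 40.2%. In genes under 100 UMI the share was 66.7% of 9 members and 47.9% of all genes, and in genes of 100 UMI or more and under 500 it was 60% of 10 members and 30.6% of all genes. With cells thinned to 10000 UMI, 3 of the 10 receptors that kept 20 UMI (30%) had such a batch beside 25.5% of 6350 genes, and the medians were 45.9% and 38.2%. Between the top batch and the other batch of the same animal, 13 of the 20 receptors (65%) had over 90% of the CPM of the pair in the former, against 43.9% of all genes. This share was 55.6% of receptors and 53.9% of all genes under 100 UMI, and 70% and 45.6% from 100 to under 500 UMI. Unscaled, Chrm3, Oprd1, Oprm1 and Chrna3 differed 25-fold or more within this pair, and for Adra1a and Chrm1 the lower bounds exceeded that too. Htr1f was at the other end, with 18.98% of its level in its top batch and a ratio of 1.01 to the other batch of that animal (exact counting interval 0.623 to 1.62). By the share of the top batch, Htr2c, Oprd1, Chrm2, Drd3 and Chrm3 came next, at 23.8% to 38.2%. A low share is not an even level: over batches Oprd1 ranged from 0 to 99.9 and Chrm3 from 4.63 to 546 TMM-scaled CPM.

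**Figure D3:**
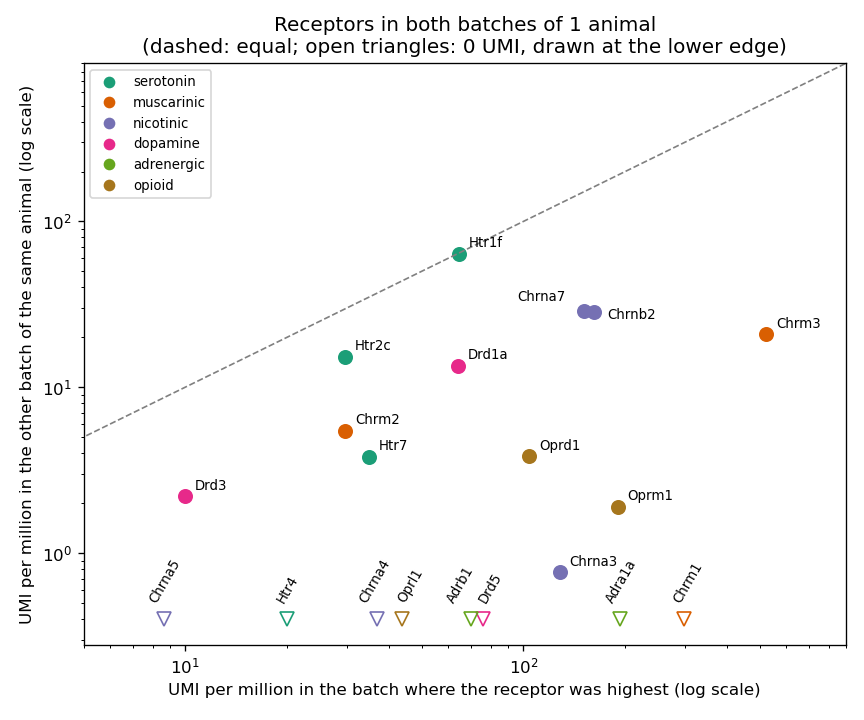
Unscaled CPM of the 20 receptor genes with 20 or more UMI in the batch where each was highest (horizontal) and in the other batch of that animal (vertical), both on log axes. Only Htr1f lies on the dashed line of equal values, and the 8 open triangles at the lower edge had 0 UMI in the other batch.

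Within a batch, in contrast, the tags of most receptors were shared among the cells about in proportion to the depth of each cell. For each receptor and batch with 20 or more UMI (42 pairs of 18 genes), the counts of the cells were compared with sharing in proportion to the cells' total UMI. The median chi-square per degree of freedom was 0.986, and 4.76% of pairs were over 2. Under random sharing the mean of this measure is 1 and its median lies slightly below 1. Over 41960 pairs of all genes in the same range of UMI, the median was 1.08 and 13.4% were over 2. These all-gene values include repeated tags. Of 2229 gene names with more than 1 row and a UMI, 883 had the same counts in every row. Summing such rows counts tags more than once and raises this measure. Among the 48 receptor genes only Oprl1 had more than 1 row, so the 2 sets are not strictly comparable. The 50 Drd5 tags of batch 2 lay in 12 cells where random sharing gives 11.4, the 371 Chrna3 tags of batch 3 in 15 cells (15.1), the 150 Chrm1 tags of batch 6 in 14 cells (14.3) and the 125 Oprm1 tags of batch 2 in 14 cells (13.6). The pairs over 2 were Htr1f in batch 4 and Oprd1 in batch 7. Some pairs lay in fewer cells than random sharing gives: in batch 3, 8 of 16 cells had a Drd1a tag (9.89) and 8 of 16 a Chrm2 tag (10.5). The chi-square per degree of freedom was 0.845 for this Drd1a pair and 1.67 for the Chrm2 pair. In the latter, 1 cell held 30.8% of the Chrm2 tags with 19.1% of the batch's UMI. The median was 0.989 for pairs with at least 50 UMI, close to that of all pairs. The cause of this sharing was not tested.

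**Figure D4:**
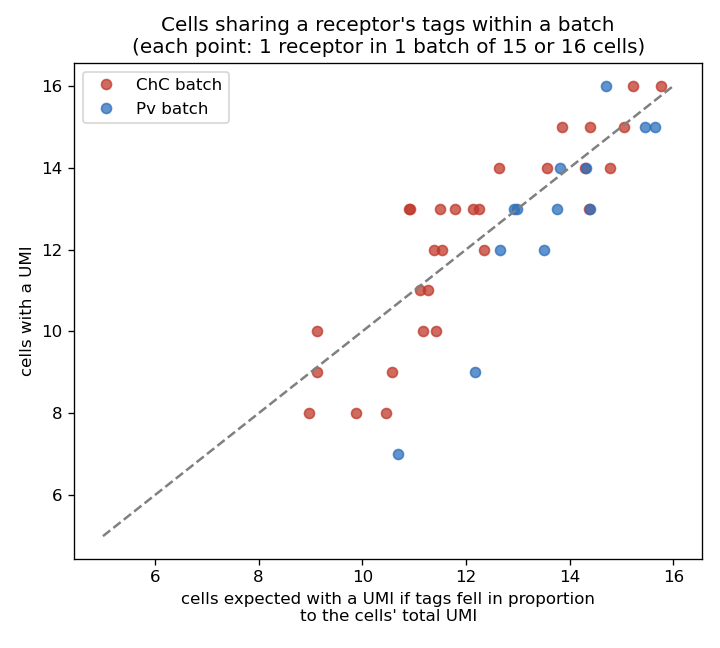
Number of cells with a tag (vertical) against the number that random sharing in proportion to cell totals gives (horizontal) for 42 pairs of a receptor and a batch, ChC in red and Pv in blue. Points follow the dashed line of equal values, and both Oprl1 points, 7 cells for 10.7 and 9 for 12.2, fall below it, where each tag was counted in both of its rows.

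The number of different receptors in a cell overlapped between the types at equal depth. With each cell thinned to 10000 UMI (14 ChC and 4 Pv cells were shallower and left out), a ChC cell had a tag of 3.85 ± 1.11 of the 48 genes and a Pv cell of 3.22 ± 0.955 (mean of batch means, SD, n = 4 batches). Batch means were 2.36, 4.90, 4.43 and 3.71 in ChC and 1.80, 3.54, 3.80 and 3.75 in Pv, and the ranges overlapped. Batches 1 and 5 were the lowest of their type. Without thinning, the means were 8.19 and 5.76, with medians per cell up to 14 in batch 3, the deepest.

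**Figure D5:**
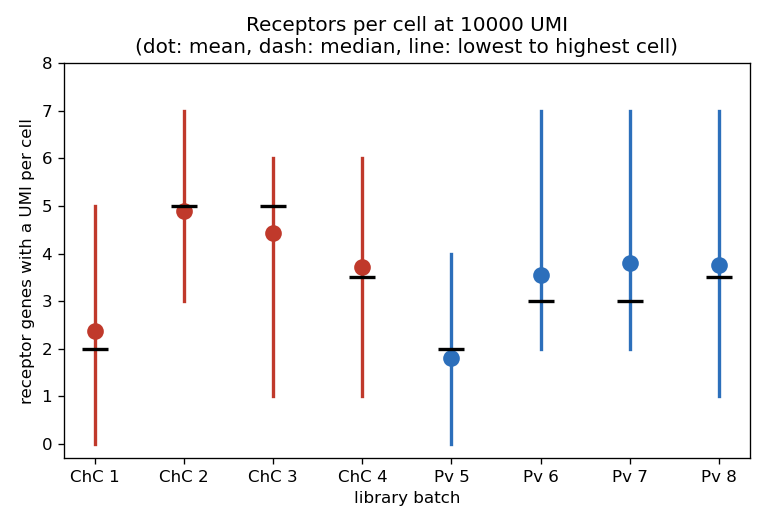
Receptor genes with a UMI per cell after thinning to 10000 UMI, by batch, with the mean (dot), the median (dash) and the lowest to highest cell (line). Batch 1 (mean 2.36) and batch 5 (1.80) lie below the other batches of their type, which range from 3.54 to 4.90.

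Genes that were not detected were compared with the others by the annotation. Of the 15 genes without a UMI, 6 had a single exon in their longest GENCODE transcript, against 3 of the 20 genes with 20 or more UMI. Median spliced lengths were 2904 and 3139 bases, and the gene spans in the table had medians of 4441 and 47180 bases. For these 15 genes, 0 of 126 cells allows a share of cells with a tag of up to 2.38%, and 0 UMI allows up to 0.393 unscaled CPM over all cells. These limits cover counting error only. Htr2b, at 0, overlaps Psmd1, which had 1589 UMI, and Drd4 and Htr6 have annotated 3' ends 1462 and 301 bases beyond their rows in the table. Among detected receptors the same held for Adra1a, Chrna4 (3931 bases), Chrm2 (3640 bases) and Drd2 (963 bases).

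Of the downstream genes of these receptors, none was called between the cell types by edgeR. Of 27 listed G proteins and effectors, 25 had a UMI, 23 were tested and 0 were called by edgeR, with 1 at an unadjusted p under 0.05. The latter was Adcy8, a calcium-stimulated adenylyl cyclase (log2 fold change 2.25, SE 0.896, adjusted p = 0.739, edgeR). Gnas, the Gs alpha subunit that D1-class, beta-adrenergic and several serotonin receptors use, had 14436 UMI in 120 cells (log2 fold change 0.52, SE 0.444). Gnaq, the partner of Chrm1 and Chrm3, had 4105 UMI in 124 cells (log2 fold change -0.49, SE 0.553). Alpha subunits of the Gi family ran from 94 UMI for Gnai3 to 2298 for Gnao1. The listed phospholipase C genes ran from 0 UMI for Plcb3 to 4272 for Plcb1. The list had 8 positive and 15 negative fold changes with a median of -0.49.

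Of 23 listed regulators, the RGS proteins, receptor kinases and arrestins that end receptor signals, all had a UMI, 17 were tested and 0 were called. Rgs10 (log2 fold change 4.71, SE 1.68) and Rgs12 (3.94, SE 1.54) had unadjusted p-values of 0.0226 and 0.0329 (adjusted 0.704 and 0.736, edgeR), and both were bound to few batches: Rgs10 stood at 109 CPM in batch 4 and Rgs12 at 93.9 in batch 2. The median was 0.54, with 12 positive and 5 negative. Of 12 listed partners of acetylcholine receptors and enzymes of its breakdown, 10 had a UMI, 5 were tested and 0 were called, with a median of -0.41. Among them, the chaperone Ric3, which helps Chrna7 assemble, was highest in batch 6 (165 CPM), and not in batch 4, where Chrna7 was highest. Tmem35, another listed partner, had 1399 UMI. It stood at 128, 43, 199 and 258 CPM in ChC and at 2.32, 78.3, 50.1 and 317 in Pv batches. Within ChC its highest batch was batch 4, as for Chrna7. Its highest batch of all was batch 8, where Chrna7 was at 2.05. Ache, the enzyme that breaks down acetylcholine, had 41 UMI, all in batches 3 and 4 of ChC animal 2. Bche, which also breaks it down, had 59 UMI, with 104 CPM in Pv batch 6 and at most 4.55 in any other batch. Slc5a7, Chat and Slc18a3, which mark cholinergic cells, had 1, 2 and 0 UMI.

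Of 14 listed genes of monoamine breakdown, synthesis and uptake, 4 were tested and 0 called. Maoa, a monoamine oxidase, stood at 0, 0, 19.6 and 0 CPM in ChC and 4.63, 627, 13.7 and 16.4 in Pv batches (log2 fold change -4.54, SE 1.97, unadjusted p = 0.0494, adjusted p = 0.793, edgeR). Its high batch was batch 6, as for Adra1a and Chrm1. Slc22a3, an uptake transporter of low affinity, was at 1.33 to 3.01 in ChC and 9.27 to 168 in Pv batches, which did not overlap (log2 fold change -4.42, SE 1.62, unadjusted p = 0.0253, adjusted p = 0.706, edgeR). Of the 6481 genes that passed the filter over batches, 4.72% did not overlap. In ChC batches 1 and 2 its 2.13 and 1.59 CPM lay below the floor of 3 counts (5.68 and 4.56 unscaled CPM). Of the synthesis enzymes, Ddc had 275 UMI in 64 cells (log2 fold change 0.72, SE 1.25), and Th, Tph2 and Dbh had 0, 13 and 8 UMI. Of the opioid peptide precursors, Pnoc, which gives nociceptin, had 166 UMI and was at 171 CPM in Pv batch 5, the batch in which its receptor Oprl1 was highest. Pnoc was at 0 in batch 8, where Oprl1 had 28 of its 50 UMI, and at 17.3 and 30.1 in ChC batches 3 and 4, where Oprl1 was at 0. Penk had 1 UMI, and Pdyn and Pomc had none.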

How the data were processed

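Single-cell libraries of 63 ChC and 63 Pv cells in 8 batches were analysed. The authors amplified polyA RNA by 2 rounds of in vitro transcription, aligned reads to mm9 with Bowtie 0.12.7 and deposited counts of unique varietal tags (UMI) per transcript and cell, without normalization. Whether the counting used strand is not given in the sources used here. Here rows were summed per gene name and cells per batch (levels) or per animal (tests). All genes passing edgeR's filterByExpr were tested with edgeR 4.0.16 (R 4.3.3; TMM, quasi-likelihood F test, 2 animals against 2, Benjamini-Hochberg, threshold 0.05); SE is the fold change over the root of F. DESeq2 1.42.0 and batches as samples were alternatives. The script was tested on simulated data. Cells were thinned to 10000 UMI (seed 1) for counts per cell. Gene models came from GENCODE on the same assembly, and file starts were read as counted from 0. In each transmitter group, the 2 genes with the highest mean level are given in full. The members and lists were chosen with earlier results of these data known. The labels repeat the tamoxifen note for Pv animals, whose genotype carries no inducible Cre. The 2 cells without counts were left out, and 1 gene of the set is not reported here.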

Additional observations from a re-analysis of the deposited data

Results flagged for a closer look

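In each cell type the 4 batches of each of the 20 receptor genes with 20 or more UMI were searched for a batch whose gap to the nearest other batch, over the whole range, was above Dixon's 95% critical value for 4 samples. Of 37 groups with a range above 0, 17 had such a batch, in 14 genes (45.9%), beside 25.7% of 22836 groups over all genes in the same range of UMI. Chance gives about 1 in 20 for values with a normal spread, which these counts do not have: 6 of the 17 had UMI in 1 batch alone, which gives the highest possible ratio. Without such groups the shares were 35.5% of 31 and 20.9% of 21440. Batch 3 was the batch in 6 of them and batch 6 in 4. All values are TMM-scaled CPM.

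In ChC batch 3 the genes far from the other ChC batches were Chrna3 at 123 (the others at most 3.18), Adra1a at 25.2, Htr4 at 19.2, Adrb1 at 16.6, Drd1a at 10.6 and Chrna5 at 8.29. In ChC batch 1 they were Chrm1 at 85.4 and Oprl1 at 4.27, in batch 2 Drd5 at 79.6 and in batch 4 Chrna7 at 148. In Pv batch 6 they were Chrm1 at 318, Adra1a at 205, Chrnb2 at 171 and Drd3 at 10.6. In Pv batch 7 Chrm3 at 271 and Chrna5 at 2.28 stood apart, the latter from 1 UMI, and in batch 8 Chrna4 at 34.9.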

How the results depend on the processing

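No receptor was called by edgeR under the 17 other settings, and DESeq2 called 1, Oprm1. Without batch 4, and without batch 8, 1 receptor (Htr1f) had batches that did not overlap, so that leaving out a batch gave 0 to 1. The share of all genes was not computed with a batch left out, and the 4.72% given above is for all 8 batches. Fewer batches fail to overlap more easily, so this count is not a result about Htr1f. Receptors per cell were 2.48 in ChC and 2.02 in Pv at 5000 UMI, and 8.19 and 5.76 without thinning. The number of receptors with over 50% of their level in 1 batch was 3 of 10 with thinned cells, which give each cell the same weight and fewer UMI, and 6 of 11 with at least 100 UMI. Both of these were chosen after seeing the data. Leaving out an animal or a batch gave log2 fold changes of -5.91 to 0.78 for Adra1a and -2.54 to 0.71 for Chrm1, both positive only without batch 6, -1.21 to 0.79 for Htr2c, negative without animal 1, animal 3 (-0.15) or batch 8 (-0.20), and -1.03 to 4.62 for Oprd1, negative without batch 3, animal 2 (-0.14) or animal 3 (-0.62). With thinned cells Oprd1 was at -0.19. The cause of these turns was not tested. The other 159 fold changes of named receptors kept their direction and stayed short of the threshold, but some came near 0 or moved over 1.5 times: Adrb1 ranged from -3.75 to -0.11, Chrnb2 from -2.27 to -0.09, Chrm3 from 0.93 to 3.99, Chrna7 from 1.51 to 4.77 and Htr1f from 0.62 to 2.03. The levels of the 28 receptors with under 20 UMI rest on few or no counts, and the cause of this was not tested. No paired analysis was possible because the groups compared share no replicate numbers.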
